A study of Rattus norvegicus with 2 samples.

Results

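The nuclear genes that encode subunits of the respiratory chain and of ATP synthase were examined in A7r5 cells, a line of smooth muscle cells derived from embryonic rat aorta. Members were chosen by gene symbol alone: a probe set, the group of array probes that reads a transcript, had to be annotated to a single rat gene whose symbol names a subunit of complex I (Nduf), complex III (Uqcr, Cyc1), complex IV (Cox4 to Cox8), complex V (Atp5) or cytochrome c. Pseudogenes, assembly factors and the inhibitor of ATP synthase were left out. The rule found 75 of 15923 probe sets, which stood for 73 of the 10411 genes with a probe set of their own. A gene with several probe sets was represented by its brightest. Of the 73 genes, 66 were measured, meaning that their mean log2 intensity over both arrays was at least the median over the array, 507 as an intensity, and the other 7, all of complex IV, were dim on both arrays. Measured were 33 genes of complex I, 8 of complex III, 10 of complex IV and 15 of complex V. Cytochrome c itself had no probe set of its own.

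The study compared 2 groups of cells, each infected for 72 hours at a multiplicity of 10, where a multiplicity of 1 meant 100 viral particles per cell, and each kept in 5.5 mM glucose. The GLUT1 group received an adenovirus with the human GLUT1 cDNA, which encodes the glucose transporter also named SLC2A1, and the control group an empty adenovirus, so infection itself was common to both. No source used here names the promoter that drove the cDNA, and A7r5 is an established line grown in culture, not vessel tissue. Groups were taken from the sample titles, since the description label of both samples names GLUT1 over-expression. RNA of 3 days was pooled into 1 sample per group and 5 µg was labelled for 1 array each, so no difference below has a replicate check, no test was possible, and the number of arrays limits the precision.

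Facts of the whole series set the scale. The rat Slc2a1 probe set read 2902 with the empty virus and 3121 with GLUT1, a log2 ratio of 0.11, but the transgene was human and binding of its transcript to rat probes is not known. Smooth muscle identity was visible on both arrays, with the smooth muscle actin gene Acta2 at 16303 and 16687, the transgelin gene Tagln at 7153 and 7369 and the calponin gene Cnn1 at 2942 and 3114, while the smooth muscle myosin gene Myh11 was dim at 227 and 228. The 7 smooth muscle markers with a probe set summed to 48862 and 49261, and 6 of them were measured. Most markers of other cells were dim: 1 of 11 cardiac or skeletal muscle genes was measured (sums of 4025 and 3829), 1 of 4 endothelial genes (901 and 783) and 2 of 6 leukocyte genes (3879 and 3492). The measured ones were Acta1 of skeletal muscle at 2339 and 2240, the endothelial gene Esam at 584 and 479 (log2 ratio -0.28), and the leukocyte genes C1qb at 1352 and 1014 (-0.41) and Cd14 at 1235 and 1398 (0.18). The endothelial gene Pecam1, at 26 and 36, and the leukocyte gene Ptprc, at 62 and 77, were under the intensity floor of 175. As a sign of RNA quality, the ratio of 3' to 5' probe sets was 1.26 and 1.204 for beta-actin and 1.164 and 1.243 for Gapdh, in the control and the GLUT1 pool. The part of these in the ratios below was not tested.

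The respiratory chain moves electrons from NADH and succinate to oxygen and pumps protons across the inner mitochondrial membrane. Complex I oxidises NADH, complex III passes electrons from ubiquinol to cytochrome c, complex IV reduces oxygen, and complex V uses the proton gradient to make ATP. A few subunits of complexes I, III, IV and V are encoded by mitochondrial DNA and the rest by nuclear genes, whose transcription is known to depend on nuclear factors such as NRF1, GABP (also called NRF-2, an ETS family factor) and YY1. Vascular smooth muscle is known for making much of its ATP and lactate by glycolysis even when oxygen is available.

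The promoters of the subunit genes shared letters that the choice by symbol did not use. RefSeq promoter windows (build GRCr8, 250 bases before to 50 bases after the gene start) were available for 65 of the 73 genes and were searched on both strands. The NRF1 core GCGCANGCG was found in 16 of the 65 windows, or 24.6%, against 5.80% of all 33469 promoters in the table and 15.3% of the 5639 windows of measured genes. The ETS core CCGGAAG was found in 18 windows, or 27.7%, against 8.75% and 20.2%. The YY1 core AAGATGGCG was found in 10 windows, or 15.4%, against 1.73% and 4.61%, the widest relative gap of these 3. At least 1 of the 3 cores stood in 36 of the 65 windows, or 55.4%, against 14.5% of all promoters and 34.5% of those of measured genes, and 7 windows held 2 or more kinds. The share of other promoters with 2 or more kinds was not counted. No matches of different cores overlapped in the windows of the subunit genes. The windows of the subunit genes were not richer in G and C (56.1%) than those of measured genes (61.5%), though richer than those of all promoters (52.7%).

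The other motifs searched were the estrogen-related receptor core and the TATA box. The former, TCAAGGTCA, was found in 1 window, that of Atp5mc3, or 1.54% against 0.433% of all promoters and 0.284% of measured genes. A TATA box (TATAAA) was found in 8 windows, or 12.3%, against 14.2% and 6.54%. Position differed between the motifs. All 10 YY1 matches were in the forward orientation and 8 of them began after the gene start, with a median first base of 13.5 bases into the transcript, whereas the median first base of ETS matches was -57 and that of NRF1 matches -59. Orientation and position were counted in the windows of the subunit genes only, so they show nothing particular to these genes. A match describes letters only and is not evidence of binding.

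**Figure D1:**
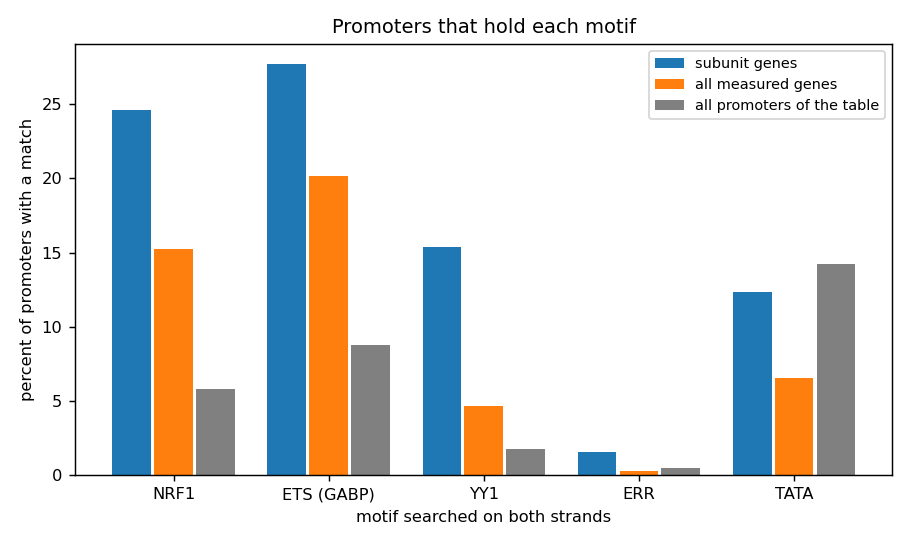
Bars give the percent of promoter windows that hold each motif, for the 65 subunit genes with a window (blue), all measured genes (orange) and all promoters of the table (grey). The YY1 bar stands at 15.4% for subunit genes against 4.61% and 1.73%, and the NRF1 and ETS bars of the subunit genes are also the tallest of their groups.

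The 250 bases before the start are shown for the gene with the most kinds of core in each complex, with the higher log2 ratio deciding ties, and for Atp5pf, whose window is shared with a neighbour. Capitals mark the matches to the NRF1, ETS and YY1 cores on either strand, and positions count back from -1 at the base before the start. Ndufa6, a complex I subunit gene, lies at chr7:115750318-115750567 (- strand) and holds all 3 kinds, an ETS core at -190 to -184, an NRF1 core at -21 to -13 and a YY1 core that begins 16 bases into the transcript, outside the printed stretch. Uqcrc1, which encodes a core protein of complex III, lies at chr8:118467973-118468222 (+ strand) and holds NRF1 cores at -63 to -55 and -39 to -31 and a YY1 core that runs from -1 into the transcript and is not capitalised. Cox5b of complex IV lies at chr9:46417587-46417836 (+ strand), with an ETS core at -14 to -8. Atp5me, the e subunit gene of complex V, lies at chr14:1464610-1464859 (+ strand), with overlapping NRF1 cores on opposite strands from -76 to -67 and an ETS core at -11 to -5. Atp5pf, which encodes coupling factor 6 of the peripheral stalk, lies at chr11:37375102-37375351 (- strand), with a YY1 core at -111 to -103 and an ETS core at -84 to -78.
Ndufa6: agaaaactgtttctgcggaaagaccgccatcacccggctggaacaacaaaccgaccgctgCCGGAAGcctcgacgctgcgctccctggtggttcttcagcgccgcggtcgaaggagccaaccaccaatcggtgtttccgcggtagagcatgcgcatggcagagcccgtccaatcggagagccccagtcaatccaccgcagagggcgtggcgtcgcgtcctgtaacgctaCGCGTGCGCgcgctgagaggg
Uqcrc1: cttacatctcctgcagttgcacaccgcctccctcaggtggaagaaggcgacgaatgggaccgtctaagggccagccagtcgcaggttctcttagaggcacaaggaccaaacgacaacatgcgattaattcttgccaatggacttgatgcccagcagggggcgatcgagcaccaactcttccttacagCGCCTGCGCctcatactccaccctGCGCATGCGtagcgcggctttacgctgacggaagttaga
Cox5b: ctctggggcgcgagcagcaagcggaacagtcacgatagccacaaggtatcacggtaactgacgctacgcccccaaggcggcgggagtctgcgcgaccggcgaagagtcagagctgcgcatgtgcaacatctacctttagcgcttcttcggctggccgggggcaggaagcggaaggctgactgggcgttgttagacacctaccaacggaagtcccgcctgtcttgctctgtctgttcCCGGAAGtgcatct
Atp5me: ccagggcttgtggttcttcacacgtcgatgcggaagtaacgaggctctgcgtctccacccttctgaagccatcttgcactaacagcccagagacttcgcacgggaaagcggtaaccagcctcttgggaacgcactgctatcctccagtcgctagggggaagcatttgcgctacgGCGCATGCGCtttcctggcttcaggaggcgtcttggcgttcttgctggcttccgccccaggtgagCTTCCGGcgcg
Atp5pf: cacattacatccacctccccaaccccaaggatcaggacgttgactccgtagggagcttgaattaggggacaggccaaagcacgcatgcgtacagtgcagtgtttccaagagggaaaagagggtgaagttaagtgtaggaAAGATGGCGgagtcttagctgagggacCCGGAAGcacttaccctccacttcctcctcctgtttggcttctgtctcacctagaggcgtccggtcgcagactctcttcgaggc

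Several subunit genes shared their upstream region with a gene on the other strand. Of the 65, 20 had a gene that started on the opposite strand within 1000 bases upstream in the RefSeq table. The same share over all promoters was not counted, so this number shows nothing particular to subunit genes. For Atp5pf the neighbour on the opposite strand was Gabpa, the gene of the DNA-binding subunit of GABP, 163 bases away. The printed stretch therefore reaches back past the start of Gabpa. Gabpa was not read by a probe set of its own. For 10 members the neighbour was measured, and these neighbours had log2 ratios from -0.17 to 0.20 with a median of 0.048 and 7 above 0. Cox4i1 lay 148 bases from Emc8, read at 2188 with the empty virus and 2513 with GLUT1, a log2 ratio of 0.20. Ndufa1 lay 66 bases from Rnf113a1, read at 854 and 760, a log2 ratio of -0.17, opposite in sign to Ndufa1 itself at 0.11.

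On the arrays, no subunit gene differed 2-fold between the pools, where 1 of 6114 measured genes, or 0.0164%, did. Log2 ratios, GLUT1 over control, ran from -0.10 for Ndufa12 to 0.22 for Atp5me. The median was 0.029 over the 66 measured genes, beside 0.0064 over all measured genes and 0.0045 over the 3215 measured genes above the 75th percentile of intensity (1503), where 65 of the 66 also lay. A ratio above 0 was found in 48 of the 66, or 72.7%, against a background of 52.2% of all measured genes and 52.1% of the bright ones. The subunit genes thus lay above 0 more often than the background. The SD of a single log2 ratio, estimated from 702 genes with 2 measured probe sets, was 0.13. Whether the errors of genes on the same arrays are independent was not tested, so this SD gives no precision for the members' median. The members' median local spread was 0.090. For a given probe set, the local spread is the scaled median absolute deviation of log2 ratios among the measured probe sets closest to it in intensity. Noise of the arrays and true differences both enter it. In pooled RNA from whole cultures, fewer cells of a type and less RNA per cell cannot be told apart.

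At the smaller size of 1.1-fold, a log2 ratio of 0.1375, the members lay on 1 side. Higher by that much in the GLUT1 pool were 8 of 66 members, or 12.1%, against a background of 14.7% of all measured genes and 9.11% of the bright ones. Lower by that much was none of the 66, against 12.6% of all measured genes and 7.5% of the bright ones. The share of higher members was therefore near the background. The SD of the members' ratios was 0.073, beside 0.14 for all measured genes and 0.10 for the bright ones. Neither comparison group matched the members in brightness: the median control intensity was 5632.5 for members, 1604 for all measured genes and 2979 for the bright ones. The median local spread fell in step, from 0.122 over all measured genes to 0.104 over the bright ones and 0.090 over the members, and its part in the narrower range and the empty low side was not tested. Set against probe sets of like brightness, 2 of the 66, Atp5f1e and Atp5me, lay more than 2 local spreads above the local median, where 3.03% of all measured genes did, and none lay as far below, where 2.55% did. With 66 genes from 2 arrays that share every step of handling, these shares describe the arrays and are not a test.

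**Figure D2:**
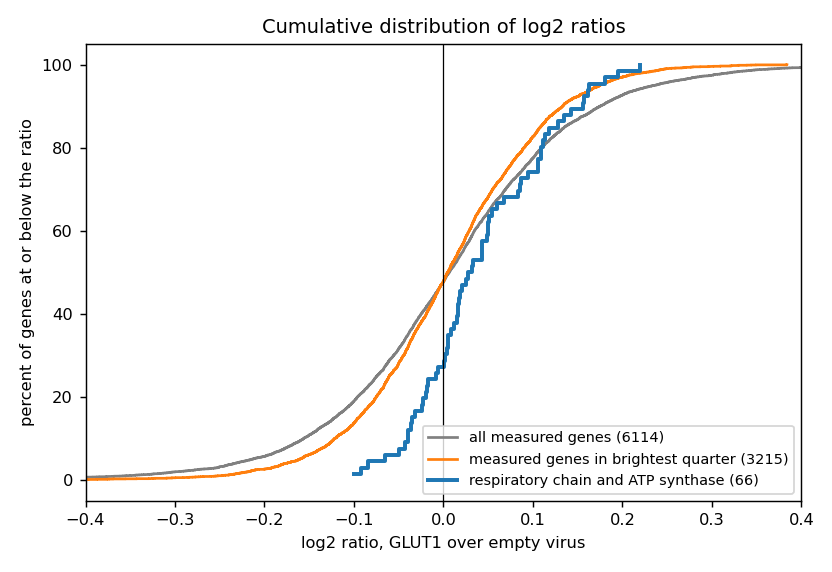
Cumulative percent of genes (vertical axis) at or below each log2 ratio, GLUT1 over empty virus (horizontal axis), for all 6114 measured genes (grey), the 3215 bright ones (orange) and the 66 subunit genes (blue). The blue curve starts at -0.10, crosses 0 lower than the other curves because 18 of 66 genes lie below 0, and rejoins them at higher ratios.

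**Figure D3:**
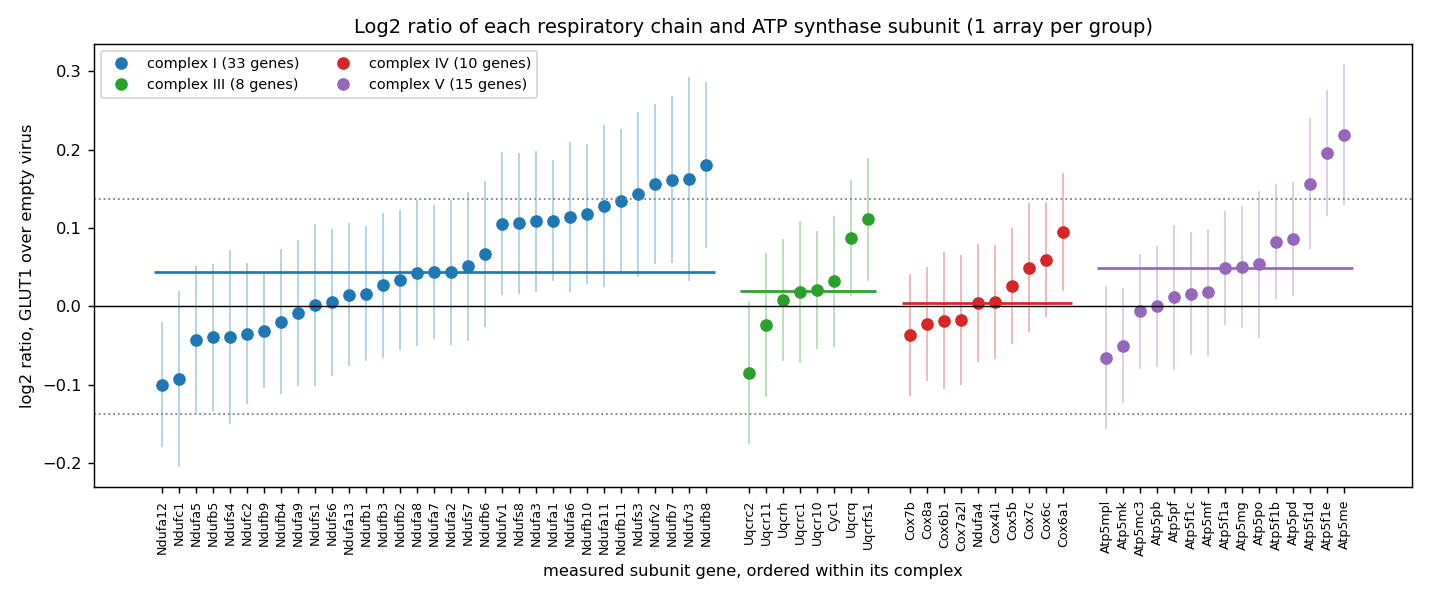
Log2 ratio, GLUT1 over empty virus, of each of the 66 measured subunit genes, ordered within its complex. Thin bars are plus and minus the local spread (not a replicate error), horizontal lines are medians of the complexes, and dotted lines mark 1.1-fold either way, which 8 genes pass upward and none downward.

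Complex I, the largest of the complexes, was centred on a log2 ratio of 0.044 (median of 33 genes): 24 genes were above 0, 9 below and 5 higher by 1.1-fold. Those 5 were 15.2% of its genes, near the 14.7% of all measured genes, and beside 9.11% of the bright ones. Its intensities ran from 1303 to 13260 on the control array and from 1457 to 12962 on the GLUT1 array. Probe sets differ in how well they bind, so a brighter gene need not have more mRNA. The core subunits, which hold the NADH site, the flavin and the iron-sulphur clusters of the electron path, were all at or above 0: the 6 measured had a median of 0.11. The 27 accessory subunits had a median of 0.033, with 18 above 0 and 9 below.

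Among the core genes, Ndufv2, an iron-sulphur subunit of the NADH-oxidising end, read 3142 with the empty virus and 3498 with GLUT1, a log2 ratio of 0.16. Ndufs3, a core subunit near the quinone site, read 2919 and 3220, a ratio of 0.14. Ndufv1, which binds NADH and the flavin, read 4493 and 4830, and Ndufs8, an iron-sulphur subunit, read 3790 and 4075, both at 0.11. These 4 were each higher on the GLUT1 array by between 1.15 and 1.54 local spreads. Ndufs7, which holds the cluster next to ubiquinone, read 3754 and 3886, a ratio of 0.051. Ndufs1, the largest iron-sulphur subunit, read 2391 on both arrays and stands above 0 only through the scaling of the arrays by 0.00138 log2 units. The core genes thus ranged from no difference to about 1.11-fold.

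Accessory subunits of complex I have no redox centre and stabilise or assemble the enzyme. The highest was Ndufb8 of the membrane arm, which read 2880 with the empty virus and 3261 with GLUT1, a log2 ratio of 0.18 and 1.71 local spreads. Ndufb7, also of the membrane arm, read 2867 and 3203, a ratio of 0.16. Just under 1.1-fold lay Ndufb11, an X-linked gene of the membrane arm, at 4568 and 5011 and a ratio of 0.13. At the other end, Ndufa12 of the matrix arm read 9113 and 8496, a ratio of -0.10, and Ndufc1 of the membrane arm read 2156 and 2020, a ratio of -0.093. Both lows were under 1.1-fold. Ndufs4, an accessory subunit whose loss is known to cause Leigh syndrome, read 2810 and 2732, a ratio of -0.039. The brightest probe set of the complex, that of Ndufb9, read 13260 and 12962, a ratio of -0.031.

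The 2 arms of complex I did not separate. The matrix arm, which oxidises NADH, had 11 of 15 genes above 0 and a median log2 ratio of 0.044, and the membrane arm, which pumps protons, 13 of 18 and 0.038. Ndufv3, an accessory subunit beside the NADH site and the dimmest measured gene of the complex, is read by 2 probe sets. The brighter read 1303 and 1457, a ratio of 0.16, and the other, below the brightness filter, read 364 and 512, a ratio of 0.49, so both were higher on the GLUT1 array by different amounts. The remaining genes of the complex lay between -0.043 for Ndufa5 and 0.13 for Ndufa11, among them Ndufb10 at 0.12, Ndufa6 at 0.11, Ndufa3 at 0.11 and Ndufs6 at 0.0052.

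Complex III was centred on 0.019 (median log2 ratio of 8 genes): 6 genes were above 0, 2 below and none at 1.1-fold. At that size 9.11% of bright genes were higher and 7.5% lower. The catalytic Uqcrfs1, which encodes the Rieske iron-sulphur protein, read 7074 with the empty virus and 7633 with GLUT1, a ratio of 0.11 and the highest of the complex. Cyc1, encoding cytochrome c1, read 6738 and 6882, a ratio of 0.032. Both redox subunits were therefore above 0. The core proteins, which fold like processing peptidases and carry no redox centre, were on either side: Uqcrc2 read 5068 and 4775, a ratio of -0.085, and Uqcrc1 read 5234 and 5295, a ratio of 0.018. Among the small subunits, Uqcrq read 11122 and 11803, a ratio of 0.087, and Uqcr11 read 5967 and 5862, a ratio of -0.024. The hinge protein gene Uqcrh, at 7785 and 7820, and Uqcr10, at 11021 and 11169, lay within 0.021 of 0.

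Complex IV was the closest to 0, at a log2 ratio of 0.0049 (median of 10 measured genes): 6 were above 0, 4 below, and every measured gene within 0.1. Its nuclear subunits surround the catalytic core that mitochondrial DNA encodes, and Ndufa4, named for complex I, is counted here because it is known to belong to complex IV. Cox6a1 was the highest, at 10441 with the empty virus and 11139 with GLUT1, a ratio of 0.095. Cox6c, the brightest, read 15707 and 16355, a ratio of 0.060, and Cox7c read 8054 and 8327, a ratio of 0.049. The lowest was the X-linked Cox7b, at 7765 and 7563 and a ratio of -0.037, followed by Cox8a, at 13637 and 13412 and -0.023. No gene of the complex thus reached 1.1-fold in either direction, a size at which 9.11% of bright genes were higher and 7.5% lower. Within 0.1 lay 69.0% of the bright genes. Measured genes of complex IV had a median control intensity of 10933 and a median local spread of 0.076, beside 3943 and 0.093 in complex I. The part of brightness in their closeness to 0 was not tested. Cox4i1, the common isoform of the subunit through which ATP is known to inhibit the enzyme, read 13502 and 13540, and Ndufa4 read 11880 and 11904, ratios of 0.0054 and 0.0043. Cox5b at 0.026, Cox6b1 at -0.018 and Cox7a2l, a factor that joins complexes into supercomplexes, at -0.018 complete the measured genes.

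The isoforms of complex IV known from certain tissues or from hypoxia were all dim. The heart and skeletal muscle isoforms Cox6a2 and Cox8b read -7 and -4 in the control and 0 and -13 in the GLUT1 pool. The origin of values at or below 0 is not stated in the sources used here. Cox7a1, the third muscle isoform, read 280 on both arrays. Cox4i2, an isoform known from lung and hypoxic cells, read 244 and 257, and Ndufa4l2, the hypoxia-induced relative of Ndufa4, read 167 and 178. Cox6b2, the testis isoform, read -2 and 36. Cox5a, a common subunit, was also dim at 282 and 291 on its only single-gene probe set, so it gives no usable reading here. No detection calls were used here, so these dim readings cannot be called present or absent.

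**Figure D4:**
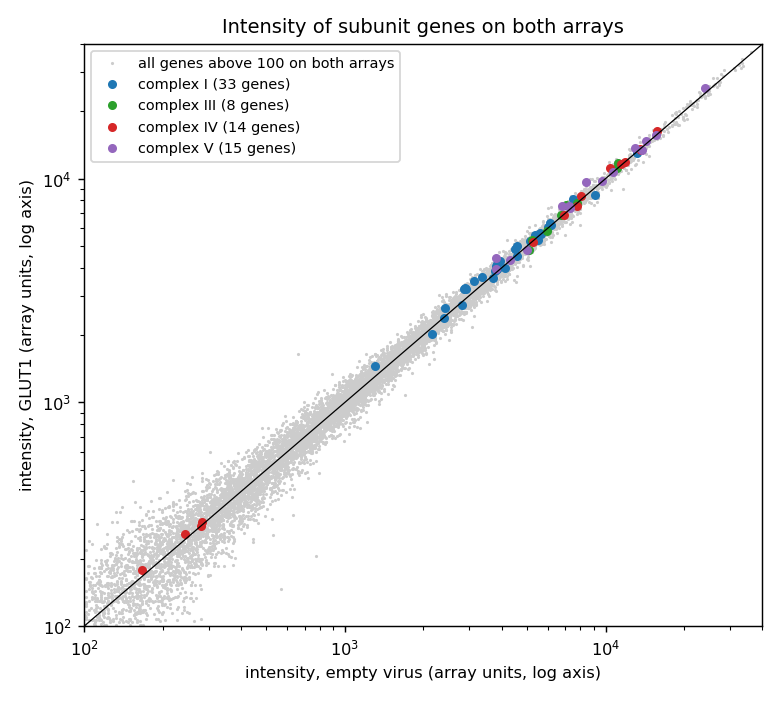
Intensity on the empty virus array (horizontal, log axis) against the GLUT1 array (vertical, log axis) for subunit genes coloured by complex, over all genes above 100 on both arrays in grey, with the line of equality. The 66 measured genes lie between 1303 and 25463 and hug the line, and the 4 dim genes in view, all of complex IV, lie between 167 and 291.

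Complex V, the ATP synthase, was centred on a log2 ratio of 0.049 (median of 15 genes): 12 were above 0, 3 below and 3 higher by 1.1-fold. The last 3 were 20.0% of its genes, against 14.7% of all measured genes and 9.11% of the bright ones. Its F1 head and central stalk, the part that makes ATP, had all 5 genes above 0, with a median of 0.083. Atp5f1e, the epsilon subunit of the central stalk, read 8407 with the empty virus and 9618 with GLUT1, a ratio of 0.20 and 2.45 local spreads. Atp5f1d, the delta subunit beside it, read 6795 and 7567, a ratio of 0.16 and 1.87 local spreads. The beta subunit gene Atp5f1b, which carries the catalytic sites and was the brightest of all members, read 24067 and 25463, a ratio of 0.083. Atp5f1a, the alpha subunit, read 14270 and 14749, and Atp5f1c, the gamma subunit that turns inside the head, read 7301 and 7376, ratios of 0.049 and 0.016. The order within F1 thus put the small central stalk subunits first.

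The other parts of ATP synthase lay on both sides of 0. Atp5me, the e subunit, which helps synthase dimers form, read 3813 with the empty virus and 4434 with GLUT1 on its brighter probe set, a ratio of 0.22, 2.43 local spreads and the highest of all members. Its other probe set, below the brightness filter, read 244 and 183, a ratio of -0.41, so the probe sets of this gene point in opposite directions. Atp5mg, the g subunit that accompanies e, read 7273 and 7522, a ratio of 0.050. The lowest were the small membrane proteins Atp5mpl, at 5019 and 4791 and -0.066, and Atp5mk, at 13860 and 13374 and -0.050. Neighbours in the membrane part therefore differed in sign. Atp5mc3, the only c ring gene with a probe set of its own, read 15683 and 15599, a ratio of -0.0064. In the peripheral stalk Atp5pd read 12948 and 13729, a ratio of 0.086, and Atp5po, the oligomycin sensitivity protein, read 3813 and 3954, a ratio of 0.054. Atp5pf, at 4318 and 4348, and Atp5pb, at 10721 and 10711, lay at 0.011 and 0.00.

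Members with and without each promoter core were set side by side. Of the 16 measured genes with an NRF1 core 10 were above 0, at a median log2 ratio of 0.017. Of the 43 measured genes with a window but no such core 33 were above 0, at a median of 0.027. For the ETS core the medians were 0.035 over 18 genes, 15 of them above 0, and 0.021 over 41, 28 of them above 0. For the YY1 core they were 0.018 over 10 genes, 8 of them above 0, and 0.027 over 49, 35 of them above 0. No test of these differences was possible. Brightness was weakly related to the ratio across the 66 members, with a Pearson correlation of -0.20. This describes genes read on the same arrays, not independent samples.

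Other genes of oxidative phosphorylation were taken from lists. All 4 subunits of complex II, succinate dehydrogenase, which feeds electrons from the TCA cycle, were above 0: Sdhd read 4163 and 4396, Sdhc 7048 and 7355, Sdhb 5484 and 5609, and Sdha 2596 and 2625, with log2 ratios of 0.080, 0.063, 0.034 and 0.017. Their median was 0.048, close to those of complexes I and V. Of 33 measured assembly factors, 18 lay above 0 and 15 below, with a median of 0.012, 5 higher and 5 lower by 1.1-fold. On each side that was 15.2% of the factors, against 14.7% of all measured genes higher and 12.6% lower. The farthest were Timmdc1, a complex I assembly factor, at 650 and 798 and a ratio of 0.30, and Atpaf1, which assembles the F1 head, at 693 and 586 and -0.24. Assembly factors were dimmer than subunits and spread to both sides, with an SD of 0.13.

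The lists of carriers and of makers around the chain had medians on either side of 0. The ATP export list, of carriers, porins and related proteins of the mitochondrial membranes, had 5 of 9 measured genes above 0 and a median of 0.051. It was led by the uncoupling protein gene Ucp3 at 560 and 627, a ratio of 0.16, and the porin gene Vdac2 at 4007 and 4316, a ratio of 0.11. Bright on both arrays was the phosphate carrier gene Slc25a3, at 23780 and 23400, a ratio of -0.022. So were the ADP/ATP carrier genes Slc25a4, at 13014 and 12696, and Slc25a5, at 10703 and 11074, with ratios of -0.034 and 0.051. These carrier genes were chosen after their values were seen. The list of genes for making ubiquinone and cytochrome c had a median of -0.0090 over 10, with 5 on each side. It also holds Ndufab1, the acyl carrier subunit of complex I, whose symbol is outside the rule. Ndufab1 read 4330 and 4255, a ratio of -0.024, so the even split and the sign of the small median depend on a gene that makes neither. Hccs, the enzyme that attaches haem to cytochrome c, read 1099 and 922, a ratio of -0.25, and Coq4 of ubiquinone synthesis read 670 and 766, a ratio of 0.19.

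Of 20 regulators of respiratory genes on the list, 10 had a probe set of their own and 6 were measured. Their median log2 ratio was 0.021, with 4 above 0. Esrrb, an orphan nuclear receptor, read 754 with the empty virus and 536 with GLUT1, a ratio of -0.49 and 2.68 local spreads below genes of like brightness, and Mterf1, a mitochondrial transcription factor, read 2353 and 2151, a ratio of -0.13. Among the other measured regulators, Tfam, which packages and transcribes mitochondrial DNA, read 3070 and 3124, a ratio of 0.027. Gabpb1, the partner subunit of GABP, read 1574 and 1632, a ratio of 0.054. These and the dim genes that follow were chosen after their values were seen. Ppargc1a, the coactivator PGC-1alpha, read -7 and -37 and so was below the floor on both arrays. Yy1, at 396 and 309 (-0.36), and Esrra, at 359 and 490 (0.45), were below the brightness filter, where single ratios vary most. So was Creb1, at 246 and 370 (0.59) on the brightest of its 3 probe sets.

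**Figure D5:**
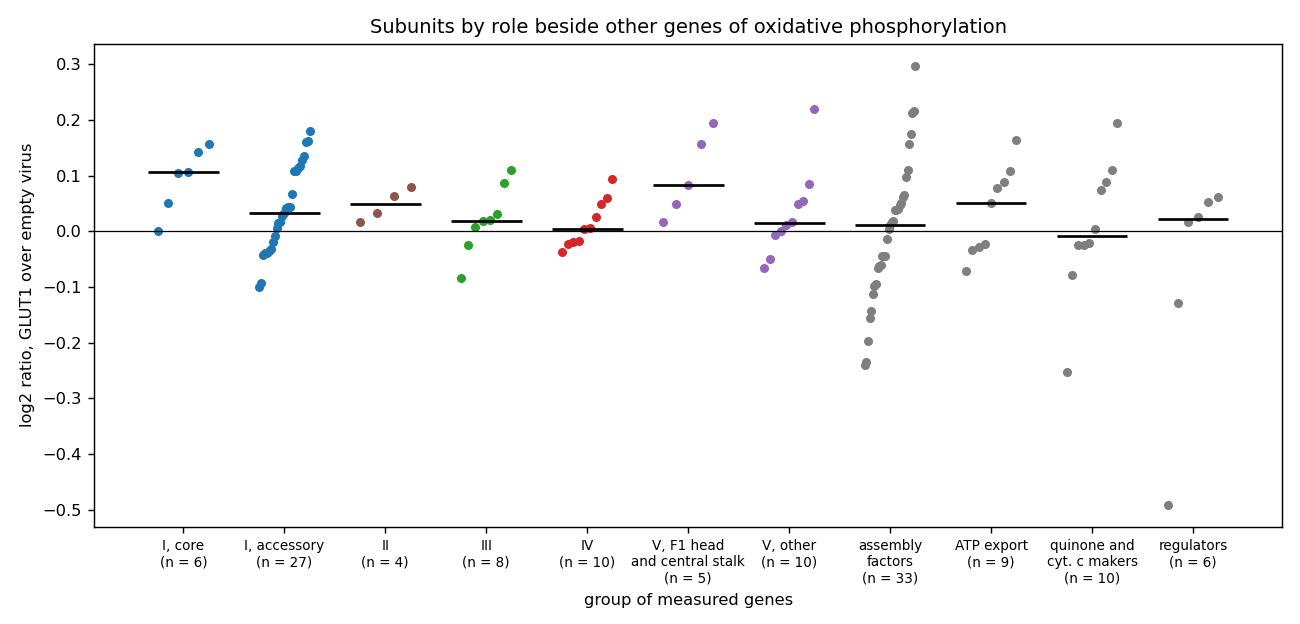
Log2 ratios, GLUT1 over empty virus, of measured subunits grouped by role (coloured) and of other genes of oxidative phosphorylation (complex II in brown, lists in grey), with the median of each group as a bar and points spread sideways in rank order. The medians of the complex I core (0.11) and the F1 part (0.083) are the highest shown, and the assembly factors spread from -0.24 to 0.30.

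The larger share above 0 was not seen in the subunit genes alone. The 71 mitochondrial ribosomal protein genes, which translate the mitochondrial part of the same complexes and were all measured, were centred on 0.060, the median log2 ratio: 47 were above 0 (66.2%). By 1.1-fold, 15 were higher (21.1%) and 5 lower (7.04%), against 14.7% and 12.6% of all measured genes. The 40 measured cytosolic ribosomal protein genes were centred on -0.0087, with 17 above 0 (42.5%), 1 higher (2.5%) and 2 lower (5.0%) by that much. The difference between these groups was not tested, since genes read on the same arrays are not replicates. A further 9 probe sets listed a subunit together with another gene, often a close copy, and were left out, and their log2 ratios ran from -0.10 to 0.056.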

How the data were processed

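The authors deposited 1 table of linear array intensity, as whole numbers, for 15923 probe sets and 2 arrays. The sources used here do not say how they were summarised, background-corrected or scaled. The deposited columns have equal medians (508), and 3.01% and 3.04% of values are at or below 0, so a change in total mRNA cannot be seen. Symbols came from the platform annotation, updated by gene ID (12748 of 12783 single-gene probe sets matched, GRCr8). Probe sets with several genes (312) or none (2771) and 57 controls were left out of gene counts. GLUT1 intensities were multiplied to bring the median log2 ratio of the brighter probe sets to 0 (a shift of -0.00138). Intensities under the 25th percentile, 175, were set to it, and log2 was taken. Members and lists were chosen with earlier results of these data known. Every member could be named. The naming rule took, per complex, the 2 highest, the 2 lowest, the brightest and the dimmest, with all tissue isoforms, c subunits, members with several probe sets and complex II, and the 2 farthest from 0 of other lists. Steps ran in Python 3.11.15 with pandas 2.3.3 and were tested on simulated data. Alternatives were other scaling, floors, filters, probe set rules and fold sizes. Promoters are RefSeq's.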

Additional observations from a re-analysis of the deposited data

How the results depend on the processing

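No paired analysis was possible because the design has a single array per group, and no replicate could be left out for the same reason. The median log2 ratio of the subunits ranged from 0.026 to 0.035 over all settings, that of complex I from 0.042 to 0.045, complex III from 0.018 to 0.022, complex IV from 0.0035 to 0.013 and complex V from 0.048 to 0.050. These ranges take in 66 subunits in most settings, 73 without a brightness filter, where complex IV has 17, and 65 with the filter at the 75th percentile. Between 46 and 52 members lay above 0. The 46 came when the arrays were not scaled and were 69.7% of 66 members, against 51.6% of all measured genes. The 52 came when no brightness filter was used, which takes in the 7 dim genes. They were 71.2% of 73 members, against 43.5% of all 10411 genes, where a gene at the floor on both arrays has a ratio of 0. The 8 members higher by 1.1-fold became 0 at 1.2-fold, a size that none of the 66 reached, and the count at 2-fold was 0 and stayed 0 at 1.5-fold. Of the 3215 bright genes, 25 were higher and 28 lower by 1.2-fold and 0 differed by 1.5-fold. Empty counts at these sizes are thus not particular to the members. Subtracting the median ratio of probe sets of like brightness, and counting Ndufa4 with complex I, were chosen after seeing the data. The deposited values were nearly equal in distribution already and bright probe sets are not touched by the floor, so scaling and floor could move little and their constancy says little about stability. Only Atp5me and Ndufv3 have a second probe set, and both of these lie below the brightness filter. The probe set rules could therefore change no member.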
